A study of Arabidopsis thaliana with 12 samples.

Results

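Among the introns that spliced well in wild-type Arabidopsis thaliana seedlings, 266 were retained at 30% or more in the prmt5-5 mutant, as a share of the reads that tell a spliced from a retained intron. They lay in 260 genes and were taken from the 3481 introns listed in the authors' 2 deposited tables of changed gene bins, where a bin is an exon, an intron or a piece of either that is counted separately. The introns were chosen by the authors' own retained fractions: above 0 and below 10% in WT, 30% or more in prmt5-5, and higher in prmt5-5 than in the picln-1 mutant. Retention in the mutants and its contrast with WT therefore only describe the members and were not tested. What the rule did not use was their sequence, their place in the gene and their reading frame.

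Each of the 12 libraries was polyadenylated RNA from whole seedlings, 4 from prmt5-5, 4 from picln-1 and 4 from WT, which the table headers call col. Seedlings of all 3 genotypes were kept at 22 °C for 10 days in 12 h of light and 12 h of darkness, and the labels give 9 days of that light regime as the treatment. A cold treatment is mentioned in the design text but in no label of the 12 libraries. Each mutation is represented by a single allele among these samples, and no label tells whether the 4 libraries per genotype are independent growths, so the authors' p-values may measure only technical spread. The deposited tables give 1 fraction per genotype and do not state how its libraries were combined. They hold no value per library, no standard error and no read depth. Differences between genotypes in these fractions hence have no replicate check of their own. As a check of the labels, the authors' deposited tables list AT5G62290, the gene of pICln, as lower in picln-1, with a change of -3.48 on the log2 scale (adjusted p 1.65e-94); AT4G31120, the gene of PRMT5, is not listed for expression in prmt5-5, while its intron 20 is listed as retained there.

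PRMT5 is an arginine methyltransferase that places symmetric dimethyl marks on Sm proteins, the ring-forming core of spliceosomal small nuclear ribonucleoproteins (snRNPs). The chaperone pICln hands Sm proteins to PRMT5 and to the assembly machinery. An intron is recognised first at its 5′ splice site, where the last bases of the exon and the first bases of the intron pair with the U1 snRNA. The first intron bases later pair with the U6 snRNA instead. In plants, an intron that is not removed usually stays in the transcript as a retained intron, which often brings a stop codon into frame and can keep the transcript in the nucleus or expose it to nonsense-mediated decay.

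The 5′ splice sites of 14 of the 15 members with the largest difference in retention between prmt5-5 and WT are printed because the bases at the exon border are where the members differed most from other introns. Each run is 3 exon bases followed by 6 intron bases, read 5′ to 3′ on the gene's strand from RefSeq TAIR10.1. All 266 members equal an annotated intron of that build. Capitals mark bases other than the most frequent base of all annotated introns at that position, and that most frequent site is given at the top.
Most frequent base at each position: aaggtaagt
CCD1 intron 1, chr3:23453153-23453161, plus strand: CCCgtGaAA
AT2G25760 intron 5, chr2:10987569-10987577, minus strand: GGCgtaaAC
AT5G25270 intron 2, chr5:8761877-8761885, minus strand: TGTgtaTgA
AT2G17320 intron 1, chr2:7535719-7535727, minus strand: CaAgtTCCt
AT1G76020 intron 1, chr1:28533286-28533294, minus strand: aCCgtCagt
AT1G09440 intron 4, chr1:3046430-3046438, minus strand: GGCgtaaTt
PRP40B intron 10, chr3:6833276-6833284, minus strand: aTTgtaCTG
TAFII15 intron 2, chr4:15355606-15355614, minus strand: aCTgtaTAC
SPPA intron 11, chr1:27828228-27828236, plus strand: CCTgtaTTt
HINT4 intron 1, chr4:9335804-9335812, minus strand: aCCgtTaTC
RD22 intron 2, chr5:8916441-8916449, minus strand: TCggtTaAA
FRO7 intron 6, chr5:20206780-20206788, minus strand: aGCgtaaTG
LOG8 intron 2, chr5:3855180-3855188, plus strand: CTCgtTTgC
CLUB intron 6, chr5:22102484-22102492, plus strand: aGggtTGgt

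Of these 14 sites, those of RD22 and CLUB alone have the most frequent base, G, as the last exon base, and those of AT5G25270, AT1G76020, LOG8 and CLUB have G at intron base 5. For contrast, the next intron downstream is shown for the first 6 of these genes; none of these 6 introns was listed as changed in either table.
CCD1 intron 2, chr3:23453305-23453313, plus strand: CTggCaCgt
AT2G25760 intron 6, chr2:10987347-10987355, minus strand: aGggtaaTt
AT5G25270 intron 3, chr5:8761508-8761516, minus strand: aTCgtaTCC
AT2G17320 intron 2, chr2:7535341-7535349, minus strand: aaggtaaCA
AT1G76020 intron 2, chr1:28532963-28532971, minus strand: CaggtTTgt
AT1G09440 intron 5, chr1:3046179-3046187, minus strand: TGggtaaTt

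In this contrast 5 of the 6 neighbours end their exon in G, the neighbour in AT5G25270 being the exception, and the neighbour of CCD1 intron 1 is a GC intron.

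Retention of the members in prmt5-5 spanned a wide range. Per the authors' deposited table the retained share had a median of 37.7% in prmt5-5 (lowest 30%, quartiles 33.1% and 47.1%, highest 92.8%), 7.14% in picln-1 (lowest 0%, quartiles 4.27% and 11.1%, highest 44.5%) and 4.95% in WT (lowest 0.503%, quartiles 2.82% and 7.32%, highest 9.86%). The limits of the rule set the floor in prmt5-5 and the ceiling in WT. In prmt5-5, 156 members were retained in 30 to 40% of junction reads, 55 in 40 to 50% and 55 in 50% or more, 8 of them in 70% or more. The authors' deposited table puts the difference of prmt5-5 minus WT at a median of 32.9 percentage points, between 21.1 and 86.7. As a log2 change of bin usage, prmt5-5 over WT, it lists values between 0.60 and 5.88 with a median of 2.56. Its adjusted p-values for these bins have a median of 1.09e-09 and a maximum of 0.148, and 242 members have one below 0.01. All 266 members are called higher in prmt5-5, where 2.82% of the 118209 bins tested were called higher; the rule used that contrast, and nothing is read from the count.

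**Figure D1:**
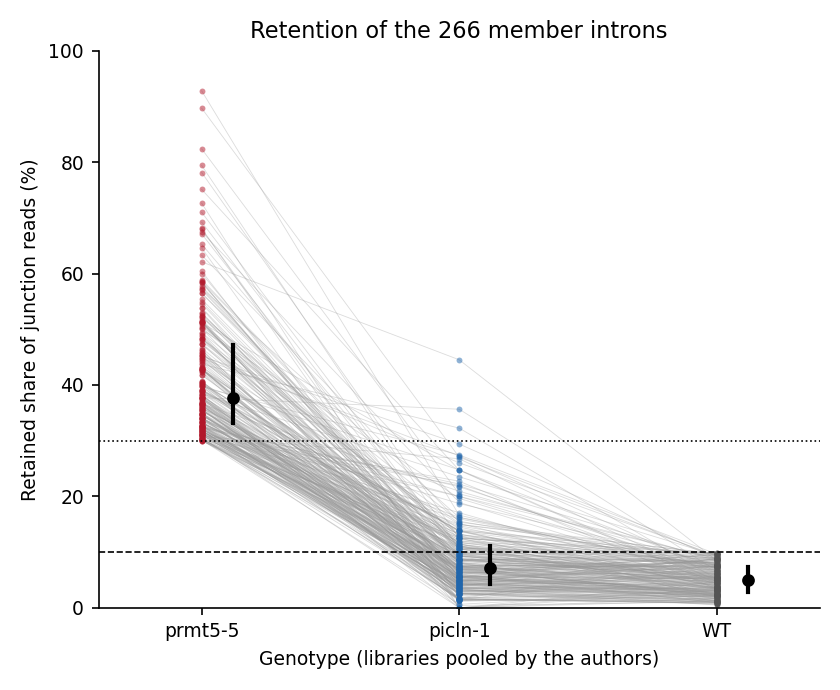
Retained share of junction reads (%) of each of the 266 member introns in prmt5-5, picln-1 and WT, as the authors' 1 value per genotype. Grey lines join the values of 1 intron, black dots and bars are medians and quartiles, and the dotted and dashed lines are the limits of 30% and 10%; medians are 37.7% in prmt5-5, 7.14% in picln-1 and 4.95% in WT.

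The 20 members with the largest difference between prmt5-5 and WT included genes of carotenoid breakdown, protein phosphorylation, pre-mRNA processing and transcription. Intron 1 of CCD1, a carotenoid cleavage dioxygenase, reached 92.8% in prmt5-5, 16.6% in picln-1 and 6.08% in WT, per the authors' deposited table. Its retention was the highest of all members in prmt5-5. For intron 5 of AT2G25760, a protein kinase gene, the authors' deposited table gives 89.7% in prmt5-5, 27.0% in picln-1 and 9.21% in WT. Intron 2 of AT5G25270, which encodes a ubiquitin-like protein, had 78.1% in prmt5-5, 12.5% in picln-1 and 1.91% in WT by the authors' deposited table. In these 3 introns picln-1 lay between prmt5-5 and WT, nearer to WT.

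Further down, picln-1 stood above WT in some members and below it in others. Intron 1 of AT1G76020, a thioredoxin-superfamily gene, reached 79.4% in prmt5-5, 10.5% in picln-1 and 8.72% in WT, per the authors' deposited table. Intron 4 of the protein kinase gene AT1G09440 is listed in the authors' deposited table at 75.1% in prmt5-5, 24.7% in picln-1 and 7.04% in WT. PRP40B encodes a scaffold that binds the tail of RNA polymerase II and takes part in pre-mRNA processing; its intron 10 stood at 72.6% in prmt5-5, 0% in picln-1 and 4.62% in WT according to the authors' deposited table. The PRP40B value in picln-1 is thus below that in WT, as was that of intron 2 of TAFII15, the gene of a TBP-associated factor of general transcription, with 68.1% in prmt5-5, 1.81% in picln-1 and 2.34% in WT as listed in the authors' deposited table. Without depths, gaps of this size between picln-1 and WT cannot be set against counting error.

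Intron 11 of SPPA, a signal peptide peptidase gene, had 69.2% in prmt5-5, 9.46% in picln-1 and 4.96% in WT by the authors' deposited table. HINT4, a histidine triad nucleotide-binding protein, had its intron 1 retained at 68.0% in prmt5-5, 4.29% in picln-1 and 4.50% in WT, according to the authors' deposited table. In both, picln-1 was below 10%, as WT was by the rule. For intron 2 of LOG8, annotated in the lysine decarboxylase-like family of cytokinin-activating enzymes, the authors' deposited table lists 67.1% in prmt5-5, 7.62% in picln-1 and 7.54% in WT. Intron 6 of CLUB, a TRAPPII tethering subunit needed for cytokinesis, was at 60.4% in prmt5-5, 1.33% in picln-1 and 2.17% in WT according to the authors' deposited table. Intron 1 of HB2, a non-symbiotic hemoglobin gene, was at 58.6% in prmt5-5, 4.03% in picln-1 and 2.17% in WT as listed in the authors' deposited table. LOG8, CLUB and HB2 differed by under 2 percentage points between picln-1 and WT. NADK1, an NAD kinase, held its intron 1 in 58.9% of junction reads in prmt5-5, 11.1% in picln-1 and 2.61% in WT, as the authors' deposited table gives it. Intron 5 of SCAB1, an actin-binding protein that acts in stomatal closure, had 58.5% in prmt5-5, 5.48% in picln-1 and 2.53% in WT by the authors' deposited table. The list of 20 closes with intron 2 of AT1G03210, a PhzC/PhzF-family gene, at 63.3% in prmt5-5, 15.4% in picln-1 and 9.59% in WT according to the authors' deposited table.

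Some members occurred at the same place in related genes. The pantothenate kinase genes AT2G17320 and AT2G17340 are close neighbours on chromosome 2, and intron 1 of both is a member. In the authors' deposited table AT2G17320 had 82.4% in prmt5-5, 20.5% in picln-1 and 8.81% in WT. AT2G17340 had 65.3% in prmt5-5, 10.8% in picln-1 and 8.94% in WT as listed in the authors' deposited table. The introns are 312 and 353 bases long, and 234 of 299 aligned bases (78.3%) are identical. The adjacent ferric reduction oxidase genes FRO7 and FRO6 both have intron 6, of 80 bases, among the members, with 71 of 79 aligned bases (89.9%) identical. FRO7, a chloroplast ferric-chelate reductase, was at 67.5% in prmt5-5, 18.9% in picln-1 and 4.76% in WT by the authors' deposited table. FRO6 was at 31.3% in prmt5-5, 10.9% in picln-1 and 3.45% in WT according to the authors' deposited table. Whether reads of such alike introns were assigned to the other copy was not tested, so the values of these genes may be uncertain. Introns of AT1G05090 and AT4G20720, each the only one in the transcript used, are identical in all 123 bases. Both genes are annotated as dentin sialophosphoprotein-like. These introns had 36.0% and 31.8% in prmt5-5, 5.82% and 5.15% in picln-1, and 3.18% and 3.07% in WT, per the authors' deposited table. With CIPK21 intron 7 they make 3 of 266 members that share their whole sequence with another annotated intron, and their values may hold reads of that copy. PIN7 and PIN4, auxin efflux carriers, both have intron 1 among the members, with 57 of 77 aligned bases (74.0%) identical. The pairs other than the pantothenate kinase genes, and CIPK21, were named after their values were seen.

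At the 5′ splice site the members stood apart from other introns at the last exon bases and at intron base 5. G as the last exon base was present in 90 of 266 members (33.8%), against 1766 of 2917 other introns called higher in prmt5-5 (60.5%; another 11 equal no annotated intron and were left out), 1984 of 2572 unlisted introns of the same genes (77.1%) and 76.5% of all other annotated introns. In place of G the members had T in 30.1%, A in 21.8% and C in 14.3%, against 10.8%, 9.72% and 2.37% in the unlisted introns of the same genes. G at intron base 5 was present in 76 members (28.6%), against 40.4% of the other introns called higher, 51.6% of the unlisted introns of the same genes and 49.6% of all others. Both Gs were present in 14 members (5.26%), against 16.9% of the other introns called higher and 32.9% of the unlisted introns of the same genes. Neither was present in 114 members (42.9%), against 15.9% of the other introns called higher, 4.2% of the unlisted introns and 5.49% of all others. The most frequent base at the last exon base but 1, A, was also less common. It stood in 33.5% of members, 47.3% of the other introns called higher and 66.1% of the unlisted introns.

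The remaining positions differed less. At intron base 3 the most frequent base stood in 59.4% of members and 63.5% of unlisted introns of the same genes. At intron base 4 it stood in 49.2% and 53.9%, and at intron base 6 in 42.5% and 52.6%. At the exon base 3 before the border it stood in 30.5% and 35.7%. The other introns called higher had 50.7%, 46.0%, 43.9% and 34.2% in the same order. At intron bases 3 and 4 the members thus had the most frequent base more often than that set. Over the 9 positions the members matched the most frequent base 4.77 times on average, against 5.22 in the other introns called higher, 5.99 in the unlisted introns of the same genes and 5.94 in all others. At most 4 matches were found in 101 members (38%), against 20.5% of the other introns called higher and 6.18% of the unlisted introns. Sites with 7 or more were found in 2 members (0.752%), against 7.13% and 29.7%. A single member (0.376%) had GC in place of GT at the intron start, against 1.12% of all other annotated introns. None began like a U12-type intron, against 0.282% of all others. Both are rare everywhere, so nothing is read from these counts. Introns are not replicates of a condition, so no test was made of these shares.

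**Figure D2:**
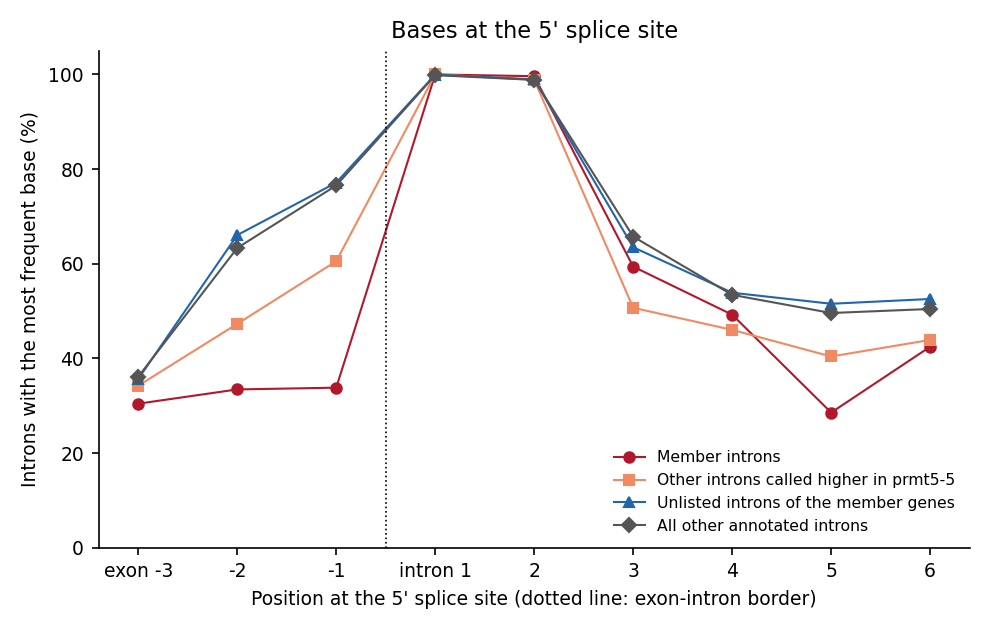
Share of introns (%) with the most frequent base at each of the 9 positions of the 5′ splice site, for the member introns, the other introns called higher in prmt5-5, the unlisted introns of the member genes and all other annotated introns. The members lie below the 3 other sets at the last exon base (33.8%), where the gap is widest, and at intron base 5 (28.6%), and close to the other sets at intron bases 1 and 2.

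Set against the unlisted introns of their own genes, most members had the poorer site. Of the 260 members whose gene also held unlisted introns, 194 matched the most frequent bases less often than the median of those introns, 61 equalled it and 5 exceeded it. The member had fewer matches than every unlisted intron of its gene in 80 of the 260, as many as the poorest in 77, and more than the poorest in 103. Other listed introns of these genes were left out. The same counts were not made for introns that are not members, so these counts have no baseline. CCD1 intron 1 had 3 matches, against at least 4 in each of 12 unlisted introns of that gene. LOG8 intron 2 also had 3 matches, against at least 5 in each of 7. CLUB intron 6 is an exception among the strongly retained: it had 6 matches, which equals the median of the unlisted introns of its gene.

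The same bases varied with the degree of retention among the members and outside them. Among listed introns with the same limits for WT and picln-1, G as the last exon base was found in 64.6% of 649 introns retained at 5 to 10% in prmt5-5, 59.9% of 1038 at 10 to 20% and 57.3% of 393 at 20 to 30%, leaving out 3 introns of the lowest class and 2 of the next that equal no annotated intron. Among the members it was found in 41.7% of 156 at 30 to 40%, 27.3% of 55 at 40 to 50% and 18.2% of 55 at 50% or more. The share with G at neither position in the same order was 11.4%, 16.6% and 20.4% below the limit, then 36.5%, 38.2% and 65.5% in the members. G at intron base 5 followed no such order, with 28.2%, 40% and 18.2% in the 3 classes of members. Of the 20 members with the largest difference, 2 had G as the last exon base, 4 had it at intron base 5, 15 had it at neither and 9 had C as the last exon base. All classes hold introns called higher in prmt5-5 within the limits for WT and picln-1, split by their prmt5-5 value. Median picln-1 retention was 2.26%, 4.41% and 6.98% in the classes below 30%. In the 3 classes of members it was 6.93%, 6.83% and 8.50%.

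**Figure D3:**
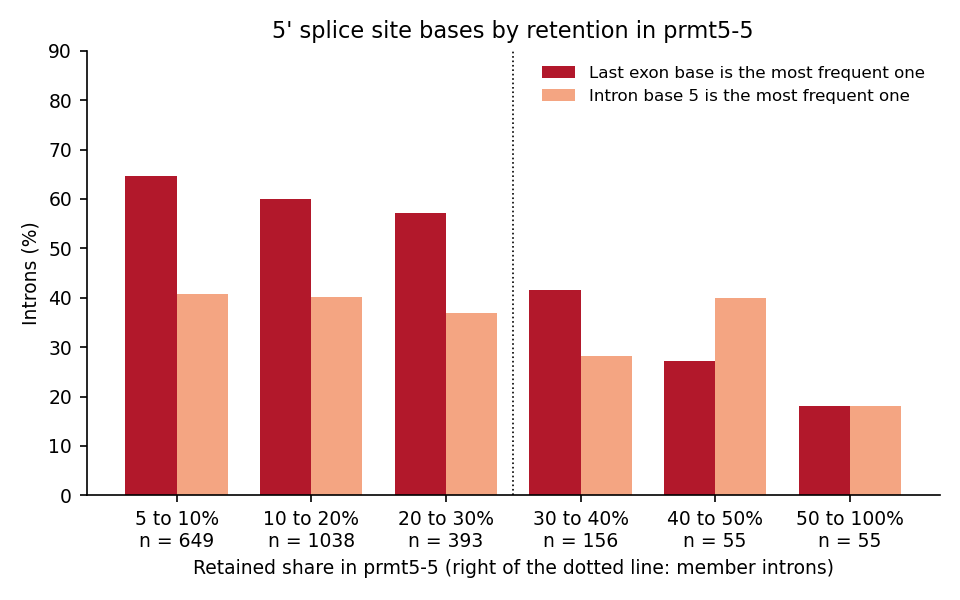
Share of introns (%) with the most frequent base as the last exon base and at intron base 5, by class of retained share in prmt5-5, with the number of introns under each class. The last exon base falls below 50% in the member classes, to 18.2% at 50% or more, while intron base 5 lies between 18.2% and 40.8%.

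Median length, base composition and the 3′ splice site were close to those of other introns, whereas long introns were fewer. Median length was 100.5 bases in the members (quartiles 89 and 132.75), 112 in the other introns called higher (90 and 204), 102 in the unlisted introns of the same genes (86 and 165) and 101 in all others (86 and 179). The shortest member, intron 4 of AT2G04360, has 66 bases and the longest, intron 3 of UMAMIT46, has 700. Introns of 200 bases or more were 39 of the 266 (14.7%), against 20.6% of the unlisted introns of the same genes, and 19 of the 39 were first introns. Median GC content was 33.0% in the members, 33.0% in the other introns called higher and 33.3% in the unlisted introns. The intron ended in CAG in 66.5% of members, 65.8% of the other introns called higher and 69.1% of the unlisted introns. The next exon opened with G in 54.5% of members, against 52.3% in either set. Pyrimidines made up a median of 60% of the 20 bases before the last 3 intron bases in the members, 60% in the other introns called higher and 65% in the unlisted introns.

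Members were spread over the genes and the genome. Chromosomes 1 to 5 held 81, 36, 42, 42 and 65 of them. In the annotation, 256 (96.2%) interrupt coding sequence, 8 lie in a 5′ UTR and 2 in a 3′ UTR. First introns were 49 (18.4%), against 17.7% of the other introns called higher and 20.9% of all other annotated introns. They were 10.6% of the unlisted introns of the same genes, which counts other introns of genes already chosen. An annotated exon of another transcript of the same gene spans 38 members (14.3%), against 8.91% of the other introns called higher and 7.0% of the unlisted introns, so retention there is an annotated form. No member overlaps an exon of another gene's messenger, long non-coding, antisense or unclassified non-coding transcript. Exons of other kinds, such as those of tRNA, snRNA, snoRNA and microRNA genes, were not searched.

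Most coding members would bring a stop codon into frame if retained, as would most other introns. Read on from the upstream frame, 230 of 256 coding members (89.8%) hold an in-frame stop, against 91.7% of the other introns called higher and 88.5% of the unlisted introns of the same genes. The stop ended at a median of base 27 of the intron. Of the other 26, 21 have no stop and shift the frame, and 5 have no stop and a length that is a multiple of 3: those in AT1G03210, ATGRIP, ckl12, AT4G11670 and AT1G50120. ATGRIP, ckl12 and AT4G11670 were named after their values were seen. A median of 45.3% of the coding sequence lay before the intron, and 144 of 256 began in the first 50% of it. Introns after the second codon base were 32.8% of coding members, against 22.7% of the unlisted introns of the same genes.

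Whole introns are printed for 5 of the top 20 to show where the reading frame ends if the intron stays in. Capitals mark the first stop codon in the frame of the upstream exon; the intron of SPPA has none.
CCD1 intron 1, chr3:23453156-23453236, plus strand: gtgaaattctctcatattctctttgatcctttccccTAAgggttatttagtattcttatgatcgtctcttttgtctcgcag
TAFII15 intron 2, chr4:15355516-15355611, minus strand: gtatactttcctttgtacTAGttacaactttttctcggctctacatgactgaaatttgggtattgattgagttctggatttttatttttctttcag
SPPA intron 11, chr1:27828231-27828310, plus strand: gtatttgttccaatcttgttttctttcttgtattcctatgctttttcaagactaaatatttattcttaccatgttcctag
HINT4 intron 1, chr4:9335716-9335809, minus strand: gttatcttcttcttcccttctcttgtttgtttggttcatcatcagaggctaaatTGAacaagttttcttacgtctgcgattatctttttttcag
HB2 intron 1, chr3:3277580-3277661, minus strand: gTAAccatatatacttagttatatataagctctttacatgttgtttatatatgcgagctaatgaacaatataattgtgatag

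Retained, CCD1 intron 1 would leave 84 residues of the annotated 538, TAFII15 intron 2 would leave 37 of 134, and HINT4 intron 1 would leave 43 of 173. HB2 intron 1 would leave 35 of 158 residues. These lengths follow from the annotated frame and were not measured as protein.

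In 6 genes there were 2 members. These were RKF1, a receptor-like kinase (introns 6 and 7), AT1G08910 (3 and 8), AT1G14970 (4 and 6), AT1G79020 (3 and 4), the ubiquitin ligase XBAT35 (7 and 8) and the SAC-domain gene SAC8 (10 and 11). In 4 of the 6 the 2 members flank the same exon. RKF1 introns 6 and 7 had 48.3% and 34.4% in prmt5-5, 15.2% and 12.5% in picln-1, and 3.85% and 9.68% in WT, per the authors' deposited table. SAC8 introns 10 and 11 had 30.7% and 32.1% in prmt5-5, 4.40% and 4.76% in picln-1, and 1.37% and 1.61% in WT as listed in the authors' deposited table. XBAT35 introns 7 and 8 had 32.3% and 30.3% in prmt5-5, 22.2% and 16.0% in picln-1, and 8.45% and 7.28% in WT by the authors' deposited table. Beyond the members, 97 of the 260 genes held 159 other introns that the authors called higher in prmt5-5. Over all 22245 annotated coding genes with an intron, 2473 (11.1%) held at least 1 intron called higher. The 260 genes were chosen for holding a called intron, so nothing is read from that count. Of their 2772 other annotated introns, 2572 were not listed for either mutant.

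Retention of the members in picln-1 ranged between 0% and 44.5%, and all were below 10% in WT by the rule. The retained share in picln-1 was below 10% in 185 members, 10 to 20% in 60, 20 to 30% in 18 and 30% or more in 3, and it was 0 in 5 of those below 10%, per the authors' deposited table. The difference of picln-1 minus WT had a median of 2.41 percentage points (quartiles 0.22 and 5.15), between -7.32 and 36.1, in values from the authors' deposited table. Both contrasts use the same 4 WT libraries and the rule held WT low. Of the 266 members, 18 are in the authors' deposited table for picln-1, each as higher, where 0.428% of the 112984 bins tested in picln-1 were called higher; as WT and picln-1 values entered the rule, nothing is read from that count.

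The members with the highest picln-1 values show the other end of the range. Intron 2 of AT3G45190, a SIT4 phosphatase-associated gene, had 62.1% in prmt5-5, 44.5% in picln-1 and 8.47% in WT according to the authors' deposited table. ALG3 is an enzyme of asparagine-linked glycosylation, and the authors' deposited table gives its intron 8 as 37.7% in prmt5-5, 35.7% in picln-1 and 6.67% in WT. Intron 6 of MLO10, a membrane protein of the MLO family, stood at 43.8% in prmt5-5, 32.3% in picln-1 and 5.15% in WT as listed in the authors' deposited table. In ALG3 the mutants were 2.08 percentage points apart, the least of all members. Its log2 bin usage over WT had the reverse order, 2.37 in prmt5-5 and 2.72 in picln-1, by the authors' deposited values. FC2, which encodes the LAMMER-type kinase AFC2, a kinase of SR splicing factors, had intron 4 at 39.7% in prmt5-5, 27.4% in picln-1 and 9.63% in WT by the authors' deposited table. Intron 5 of PFI, the tubulin folding cofactor E, was at 51.1% in prmt5-5, 24.7% in picln-1 and 4.0% in WT according to the authors' deposited table. The smallest adjusted p-value of a member in the picln-1 table belongs to the 5′ UTR intron of AT3G24740, with 3.88e-13, a log2 bin usage of 2.60 and retention of 39.9% in prmt5-5, 24.8% in picln-1 and 4.35% in WT, all from the authors' deposited table.

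Members were found in 5 genes of the lists for splicing, the clock, flowering and stress. None of 43 snRNP and assembly genes with an intron held a member, although 7 held an intron called higher in prmt5-5, and of 25 genes of SR and hnRNP-like proteins 9 held a called intron and 1 (4.0%), PTB1, a member. None of 4 nonsense-mediated decay genes and none of 18 light-signalling genes held a member, with 0 and 2 holding a called intron. The clock list had a member in 1 of 20 genes (5.0%), FKF1, and a called intron in 3, and the flowering list a member in 1 of 22 (4.55%), SWN, and a called intron in 4. The drought, salt and cold list had members in 2 of 16 (12.5%), RD22 and SOS3, the same number as held a called intron. Over all 22245 annotated coding genes with an intron, 2473 (11.1%) held an intron called higher and 260 (1.17%) a member. These shares rest on 1 or 2 genes each and are given as a description, and the lists were chosen with earlier results of these data known.

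The members in these lists cover regulators of splicing, chromatin and stress. PTB1 encodes a polypyrimidine tract-binding protein that regulates alternative splicing, and its 5′ UTR intron 1 had 52.8% in prmt5-5, 8.11% in picln-1 and 2.13% in WT as listed in the authors' deposited table. SWN encodes a histone methyltransferase of the Polycomb group, and its intron 1 had 51.5% in prmt5-5, 1.37% in picln-1 and 1.69% in WT by the authors' deposited table. Intron 2 of RD22, a dehydration-responsive BURP-domain gene, had 71.0% in prmt5-5, 9.78% in picln-1 and 7.84% in WT according to the authors' deposited table. Intron 4 of SOS3, a calcium sensor of salt tolerance, was lower in the range, with 34.1% in prmt5-5, 10.6% in picln-1 and 6.80% in WT as listed in the authors' deposited table. The sole intron of FKF1, a clock-controlled F-box photoreceptor of flowering time, had 32.5% in prmt5-5, 18.7% in picln-1 and 7.89% in WT by the authors' deposited table.

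Further named members among the 60 with the largest difference include regulators of immunity and development. SRFR1, a repressor of immune responses, had intron 20 at 57.7% in prmt5-5, 8.14% in picln-1 and 5.00% in WT according to the authors' deposited table. Intron 12 of ETFQO, a mitochondrial electron-transfer oxidoreductase, had 57.3% in prmt5-5, 9.30% in picln-1 and 4.44% in WT as listed in the authors' deposited table. Intron 3 of HB-8, a homeodomain factor of vascular development, had 51.2% in prmt5-5, 3.70% in picln-1 and 1.18% in WT by the authors' deposited table. EDD1 encodes a glycine-tRNA ligase, and the authors' deposited table puts its intron 22 at 52.4% in prmt5-5, 6.98% in picln-1 and 5.50% in WT. MMZ3, a ubiquitin-conjugating enzyme variant, had intron 2 at 54.9% in prmt5-5, 7.61% in picln-1 and 7.32% in WT according to the authors' deposited table. In these 5 examples picln-1 was below 10%, as WT was by the rule. Other named members among the 60 had higher picln-1 values, such as PFI with 24.7%. Annotated products with the word kinase were 32 of the 260 member genes (12.3%), against 159 of 2219 other genes with a called intron (7.17%); that word was chosen after the gene names were seen, and no test was made.

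Expression of the genes that hold a member was mostly higher in prmt5-5 where it was listed at all. In the authors' deposited table of gene expression 128 of the 260 genes are higher and 3 lower in prmt5-5, where 4.99% of the 16747 genes tested were higher and 4.15% lower. The same libraries chose the members, so nothing is read from these counts, and the sources used here do not say whether reads in retained introns entered the gene counts, which was not tested. The listed rises had a median of 0.87 on the log2 scale, prmt5-5 over WT, between 0.58 and 2.51, in values from the authors' deposited table. Among other genes with an intron called higher, 210 of 2219 (9.46%) are listed as higher and 29 as lower in the authors' deposited table. By class of retention, the authors' deposited table lists as higher 57 of 152 genes (37.5%) at 30 to 40%, 32 of 55 (58.2%) at 40 to 50% and 40 of 55 (72.7%) at 50% or more. A gene with 2 members counts in each of its classes.

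**Figure D4:**
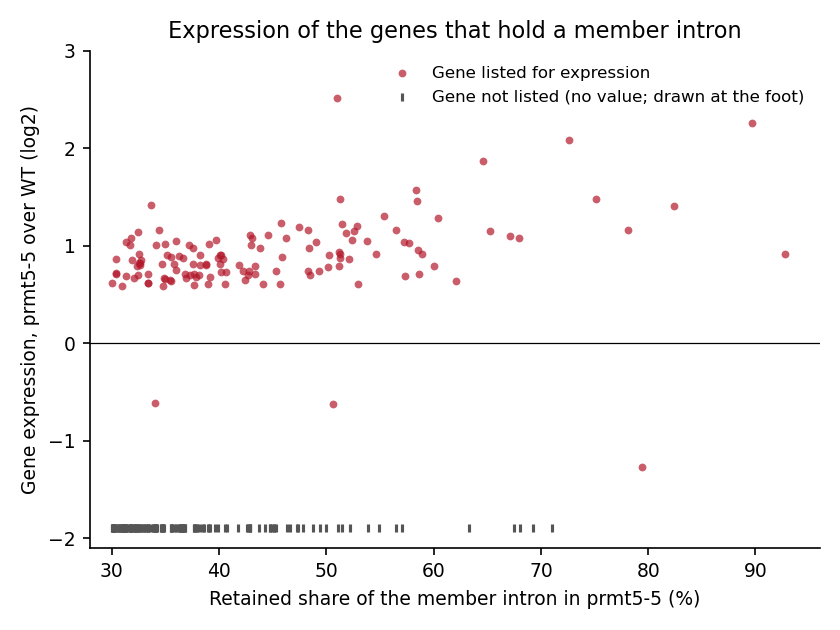
Log2 change of gene expression, prmt5-5 over WT, as deposited by the authors, against the retained share (%) of the member intron in prmt5-5; a gene with 2 members appears at both. Points are listed genes and ticks at the foot are genes not listed, which have no value; 128 genes are above 0 and 3 below.

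Among the largest rises, on the log2 scale of prmt5-5 over WT in the authors' deposited table, were 2.51 in AT1G12730, a GPI transamidase subunit gene, 2.26 in AT2G25760 and 2.09 in PRP40B. AT1G32090, annotated as an early-responsive to dehydration protein, had 1.57, the bHLH gene AT1G61660 had 1.48, AT1G09440 had 1.47, SCAB1 had 1.46, the sulfate transporter gene SULTR3;5 had 1.42 and AT2G17320 had 1.41 in the authors' deposited table. Adjusted p-values in the authors' deposited table were 1.96e-147 for AT1G12730 and 1.7e-165 for PRP40B. Of these genes, SULTR3;5 had the member with the lowest retention, intron 5 with 33.6% in prmt5-5, 16.2% in picln-1 and 7.69% in WT as listed in the authors' deposited table. The 3 genes that fell were AT1G76020, by 1.27 on the log2 scale (adjusted p 3.87e-24), AT3G56160, a bile acid-sodium symporter family gene, by 0.62 (adjusted p 2.6e-18), and AT2G04360, by 0.62 (adjusted p 1.32e-16), all from the authors' deposited table. In picln-1 3 of the 260 genes are listed for expression, where 1.69% of the 16473 genes tested were listed in either direction: FRO6 was higher by 0.65, SAC3A fell by 0.60 and AT3G10260 fell by 0.63 on the log2 scale in the authors' deposited table. These 3 were named after their values were seen, except SAC3A, which lies at a limit of the rule.

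Introns just inside and just outside a limit had nearly the same value of the limited quantity in the authors' deposited table. AT1G50120 intron 8, HAT22 intron 1 and FIP1[V] intron 7 sit inside at 30% in prmt5-5, with 7.41%, 6.96% and 10.6% in picln-1 and 4.66%, 3.48% and 3.66% in WT, and AT2G26210, CYP71A27 and ZIF1 sit outside at 29.9% in prmt5-5, in the authors' deposited table. At the WT limit of 10%, SAC3A intron 3 is inside with 47.3% in prmt5-5, 9.62% in picln-1 and 9.86% in WT, and RABG3B intron 4 is outside with 35.1% in prmt5-5, 5.88% in picln-1 and 10.0% in WT, per the authors' deposited table. A WT value of 0 kept out 17 introns, among them intron 20 of SKB1, the gene of PRMT5 itself, with 81.0% in prmt5-5, 0.870% in picln-1 and 0% in WT by the authors' deposited table. Another 2 introns were kept out because prmt5-5 did not exceed picln-1, AT4G11900 with 33.3% in prmt5-5, 33.3% in picln-1 and 9.09% in WT, and AT2G46420 with 30.9% in prmt5-5, 43.4% in picln-1 and 6.67% in WT according to the authors' deposited table.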

How the data were processed

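Polyadenylated RNA of 12 seedling libraries, 4 per genotype, was sequenced, and the submitters' processing notes name TopHat and the TAIR10 genome; the sources used here do not give the counting and testing program. The authors deposited tables of their own comparisons: log2 fold changes of genes and bins (mutant over WT), the p-value and adjusted p-value of each, and a retained fraction per genotype, per the file headers. The headers name no library for these fractions and do not say how the 4 libraries were combined. Here fractions were multiplied by 100. The base of the logarithm is not stated; base 2 was taken because the smallest listed change of a gene in prmt5-5, 0.58, is then a change of about 1.5-fold. Coordinates and events in the deposited bin tables are other, descriptive values of the authors. Per the deposited description, genes are listed at an adjusted p below 0.05 and bins at one below 0.15 with a fraction change above 0.05, so unlisted features are unchanged, changed less or not tested. Depth is unknown.

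The members, gene lists and comparisons were chosen with earlier results of these data known. Introns were matched to the RefSeq annotation of TAIR10.1 by chromosome, start and end; all 266 matched, and 265 begin with GT, so that the TAIR10 positions fit these sequences. The first annotated transcript holding the intron gave its number, frame and place. The numbers of genes and bins tested were recovered from the ratios of adjusted to raw p. No test of introns or genes was made here. Planned count tests, refits without each replicate and a replicate block need values per library and could not be run. The stop-codon search and the recovery of test numbers were tested on simulated data. Named were the 20 members with the largest difference in retention, those among the 60 largest with a gene symbol, those in the 7 gene lists, genes with 2 members, those with the highest picln-1 values or the smallest picln-1 p, those at the limits of the rule, the longest and shortest, and the genes with the largest expression changes; from these sets examples are given. A gene among them is not reported here. Python 3.11.15, numpy 2.4.6, pandas 2.3.3 and Biopython 1.88 were used.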

Additional observations from a re-analysis of the deposited data

How the results depend on the processing

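Of 79 values recomputed under another setting, 63 stayed close to the value reported and 16 moved. Some of these outcomes follow from the setting, as a changed limit on a fraction shifts the number of members and the median of that fraction. The sets also share most of their introns, so the tally is a description and no measure of robustness. With a prmt5-5 limit of 25% there were 422 members with a median retention in prmt5-5 of 32.5%; 42.2% had G as the last exon base, 35.8% had it at neither position and 40.5% of genes were listed for expression. With a limit of 40% there were 110 members with a median of 49.7%; 22.7% had G as the last exon base, 51.8% at neither position, 95.3% of coding members held a stop in frame and 67.3% of genes were listed. With WT below 5% there were 135 members, with medians of 4.89% in picln-1 and 2.86% in WT. Set beside the unlisted introns of the same genes in place of the other introns called higher, the share with G was 77.1% at the last exon base and 51.6% at intron base 5, where it was 60.5% and 40.4%. Other settings admitted WT at 0, dropped the demand on picln-1 or took a bin adjusted p below 0.01. Further ones took an expression adjusted p below 0.01, the deposited coordinates or the longest coding sequence. None of these moved a count by over 1.5 times or a share or median beyond its 95% interval over introns. That interval treats introns as independent, which was not tested, and served only as a yardstick of size. No paired analysis was possible because the deposited tables hold no values per library; the refits without each replicate could not be run either. Depth is unknown, so the precision of single fractions is too.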
